A study of Homo sapiens with 30 samples.

Results

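Ferritin and 8 further genes of cellular iron handling were followed across 5 radiation doses in a pair of human lymphoblastoid cell lines. The 9 genes were FTL and FTH1, which encode the light and heavy chains of ferritin, TFRC, SLC11A2, NCOA4, ACO1, IREB2, HMOX1 and HMOX2. A probe set, the group of short probes that together give 1 signal on the array, was taken as a member where the platform annotation gave it 1 of these symbols and no other. This gave 13 probe sets of 7 genes, out of 11963 genes that had a probe set with 1 symbol. FTH1 and IREB2 had no probe set under this rule and were not analysed here. FTL was listed because its signal at 7.5 cGy exceeded that at 1 cGy in GM15036, so that contrast is given as a description without a test, while the other genes were listed for their function.

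The lines, GM15510 and GM15036, were made from B lymphocytes that Epstein-Barr virus had immortalised. Each was grown in suspension in MEM with serum, exposed to caesium-137 at 1, 2.5, 5, 7.5 or 10 cGy, and measured on 3 arrays per dose, which makes 10 groups and 30 arrays. Doses are in cGy as the sample labels have them. The series' own design text lists the same figures with the unit Gy. All 10 groups received radiation, and no unirradiated group was among those analysed, which hides any shift that every dose shares. The 1 cGy arrays of the same line served as the baseline. The sources give no time between irradiation and harvest, and the labels do not say whether triplicate arrays stem from separate cultures. The p-values thus reflect array-to-array spread alone, possibly technical, and each line is the cells of 1 donor. In such bulk RNA, fewer cells expressing a gene and less RNA per cell cannot be told apart.

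Ferritin is a hollow shell of light and heavy chains that stores iron in the cytosol. Iron enters the cell bound to transferrin through the receptor TFRC, leaves the endosome through SLC11A2, and is released from ferritin when NCOA4 delivers the shell to lysosomes. The iron regulatory proteins, encoded by ACO1 and IREB2, bind a hairpin called the iron-responsive element: in the leader of ferritin mRNA they block translation, and in the tail of TFRC mRNA they protect the message from decay. Haem oxygenases, the inducible HMOX1 and the constitutive HMOX2, free iron from haem.

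The hairpin site of FTL and the upstream sequences of FTL and TFRC are shown because these genes supply all member calls against 1 cGy. They are RefSeq sequences of GRCh38.p14, printed 5′ to 3′ on the strand of the gene. Capitals mark the 6-base loop of the iron-responsive element in the leader, and upstream they mark a run that resembles the TATA box (ATAAA). In TFRC they also mark the core of the hypoxia response element (ACGTG).
FTL leader, bases 25 to 50 of the transcript, chr19:48965333-48965358, plus strand: gtctcttgcttcaaCAGTGTttggac
FTL upstream, chr19:48965249-48965308, plus strand: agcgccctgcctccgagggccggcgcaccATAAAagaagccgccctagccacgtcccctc
TFRC upstream, chr3:196082091-196082210, minus strand: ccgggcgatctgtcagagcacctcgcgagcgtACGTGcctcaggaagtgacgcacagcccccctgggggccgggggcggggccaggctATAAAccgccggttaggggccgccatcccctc
FTL lies at chr19:48965309-48966879 on the plus strand and TFRC at chr3:196049284-196082090 on the minus strand. Of the 9 genes, 7 had an entry in the promoter table, and FTH1 and HMOX1 were not searched. The bulge and loop of the iron-responsive element, a C followed by 5 free bases and then CAGTGN on the transcribed strand, searched within the first 50 bases of the transcript, was found in FTL alone of these 7 genes and in 1.67% of all 35116 promoters. ATAAA between 40 and 15 bases upstream was found in FTL and TFRC, and in 4.65% of all promoters. ACGTG on either strand within 250 bases upstream was found in FTL, HMOX2 and TFRC, and in 18.5% of all promoters, and the copy in FTL lies on the other strand. TGACNNNGC, the core of the antioxidant response element, searched on both strands of the same 250 bases, was found in 0 of the 7 genes and in 10.9% of all promoters. A match describes the letters only and is not evidence of binding.

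The arrays had not been brought to a common level. Brightness, the trimmed mean of the deposited signal, ranged from 14.1 to 111.5 over the 30 arrays and moved with dose. Its group means, in order of dose, were 69.4, 18.7, 39.0, 67.7 and 89.1 in GM15510 and 69.6, 49.8, 51.3, 32.4 and 22.1 in GM15036. The dimmest groups were thus 2.5 cGy in GM15510 and 10 cGy in GM15036. Each array was scaled to the same trimmed mean, and all signals below are scaled signals. Changes are differences of log2(signal + 4), a scale that understates the change of dim probe sets. When unscaled arrays were instead centred on their own medians, the median change of all tested probe sets was −0.20 at 7.5 cGy and −0.38 at 10 cGy in GM15036, and −0.50 at 2.5 cGy and −0.29 at 5 cGy in GM15510, so signed changes are relative to the scaling. Dim arrays, here those with a brightness under 20, numbered 5. A fit without them keeps 1 array in GM15036 at 10 cGy, 1 in GM15510 at 2.5 cGy and 2 in GM15510 at 5 cGy, and it assumes that a lone array varies like the other groups. Of 22283 probe sets, 13329 passed the filter on low signal and were tested, among them 12 of the 13 member probe sets. Markers of B cells were present, with all 5 measured of 6 listed passing the filter, and 0 of 4 measured monocyte markers passed.

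FTL signal in GM15036 on probe set 212788_x_at was higher at 7.5 and 10 cGy than at the 3 lower doses. In GM15510 neither FTL probe set passed at any dose. Both have the suffix _x_at, and whether they also read sequences related to FTL could not be checked. On probe set 212788_x_at, the brighter of its pair, GM15510 arrays had signals of 1454, 1326 and 1171 at 1 cGy, 1202, 1298 and 1297 at 2.5 cGy, 1195, 1429 and 1225 at 5 cGy, 1333, 1359 and 1301 at 7.5 cGy, and 1150, 1269 and 1462 at 10 cGy. Each higher dose of GM15510 overlapped with its 1 cGy arrays. GM15036 arrays had 1001, 1031 and 1118 at 1 cGy, 1111, 1010 and 964 at 2.5 cGy, 1044, 923 and 1122 at 5 cGy, 1687, 2085 and 1966 at 7.5 cGy, and 1610, 1676 and 1521 at 10 cGy. All 6 arrays of the upper doses lay above all 9 arrays of the lower doses.

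On the second probe set, 213187_x_at, the lowest, median and highest of the 15 GM15510 arrays were 59.6, 71.0 and 100.4. Its highest arrays lay at 2.5 and 5 cGy and not at the upper doses. GM15036 arrays had 65.1, 55.2 and 67.9 at 1 cGy, 63.2, 59.6 and 65.5 at 2.5 cGy, 90.6, 81.2 and 62.2 at 5 cGy, 129, 126 and 134 at 7.5 cGy, and 90.2, 76.9 and 106.5 at 10 cGy. The 7.5 cGy arrays stood above all others, and the 10 cGy arrays stood above those at 1 and 2.5 cGy but overlapped those at 5 cGy.

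**Figure D1:**
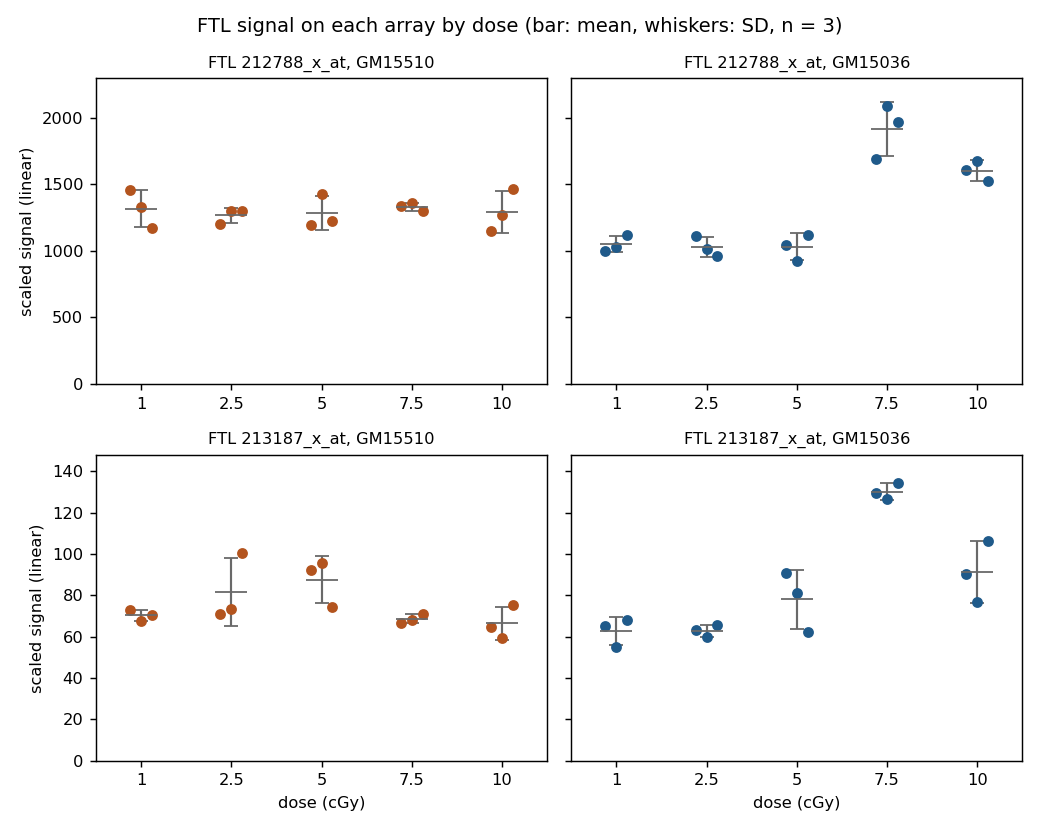
Scaled signal (linear axis from 0) of both FTL probe sets on each array against dose in cGy, with GM15510 on the left and GM15036 on the right. Points are single arrays, the bar is the mean and whiskers are the SD of 3 arrays. On 212788_x_at the GM15036 arrays at 7.5 and 10 cGy lie between 1521 and 2085 and all its other arrays between 923 and 1122.

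The contrast that chose FTL, 7.5 against 1 cGy in GM15036, was 0.86 (SE 0.10) on the log2 scale for 212788_x_at and 1.01 (SE 0.150) for 213187_x_at. Over 12 alternative settings these values ran between 0.55 and 0.86, and between 0.74 and 1.06. The same contrast in GM15510 was 0.02 and −0.04, with limma adjusted p = 0.972 and 0.968.

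At 10 cGy, FTL exceeded 1 cGy in GM15036 by 0.61 (SE 0.10, adjusted p = 7.99e-05) on 212788_x_at and by 0.51 (SE 0.150, adjusted p = 0.0230) on 213187_x_at. This comparison shares its 1 cGy arrays with the contrast that chose the gene. Against the mean of 2.5 and 5 cGy, arrays that did not enter the choice, 10 cGy was higher by 0.64 (SE 0.087, adjusted p = 3.51e-06) on 212788_x_at, while 213187_x_at had 0.36 (SE 0.130) and did not pass (adjusted p = 0.0684). The value of 212788_x_at became 0.12 (adjusted p = 0.561) with unscaled median centring. With unscaled arrays centred on their medians the 10 cGy rise of FTL turned to −0.051 and −0.035, which is 0.33 and 0.34 above the median of all probe sets, and when brightness entered as a covariate adjusted p was 0.0860 and 0.385. On 213187_x_at the call was also lost with centring after scaling (0.307) and without 1 cGy array b (0.129), 10 cGy array a (0.0552) or 10 cGy array c (0.127).

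The 10 cGy group of GM15036 held 2 of the 5 dim arrays. Without those 5, with 1 array left at 10 cGy, the FTL change there was 0.53 (adjusted p = 0.0270) on 212788_x_at and 0.73 (adjusted p = 0.0219) on 213187_x_at. The actin control ratio, log2 of 3-prime over 5-prime signal of ACTB, had group means in GM15036, in order of dose, of 4.22, 5.18, 4.80, 5.15 and 4.98, so it was above 1 cGy at all higher doses and highest at 2.5 cGy. The same ratio of GAPDH had group means there of 2.49, 2.63, 2.45, 2.78 and 2.80, with SDs from 0.11 to 0.27. Its means were highest at 7.5 and 10 cGy. PTPRC, a pan-leukocyte marker, was lower in GM15036 at 7.5 cGy by −0.62 and at 10 cGy by −0.56 (adjusted p = 3.60e-04 and 2.17e-04). CD3E, a T cell marker, was higher at 10 cGy by 1.36 (adjusted p = 0.0453), and the summed signal of all 5 T and NK cell markers ranged from 58.6 to 74.9 at 10 cGy and from 35.4 to 54.6 at 1 cGy. The summed signal of the 5 B cell markers, PTPRC among them, ranged from 1355 to 1363 at 1 cGy. It ranged from 1042 to 1099 at 7.5 cGy and from 1159 to 1209 at 10 cGy. Of the others, MS4A1 had −0.48 at 7.5 cGy (limma adjusted p = 0.00357) and −0.15 at 10 cGy (0.388). At 7.5 and 10 cGy, CD79A had −0.62 and −0.14, CD79B 0.14 and 0.01, and CD74 −0.01 and 0.09, and none of these passed. In GM15510 the ACTB ratio had group means, in order of dose, of 3.58, 4.12, 4.58, 3.59 and 4.94, with SDs from 0.11 to 1.18. Those of GAPDH lay between 2.25 and 2.45. There MS4A1 passed at 2.5 and 5 cGy (0.50 and 0.43), and CD74 at 2.5, 5 and 10 cGy (−0.45, −0.40 and −0.41). None of the other tested markers passed at any dose of that line. The part of these differences in the FTL result, and in the TFRC changes of the same groups, was not tested.

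The FTL change at 10 cGy differed between the lines on 212788_x_at, while the difference on 213187_x_at did not pass. This comparison shares its GM15036 1 cGy arrays with the contrast that chose the gene. The change in GM15510 minus that in GM15036 was −0.64 (SE 0.141, adjusted p = 0.00330) on 212788_x_at and −0.59 (SE 0.213) on 213187_x_at, which did not pass (adjusted p = 0.0860). The first value turned to 0.068 with unscaled median centring, and its adjusted p was 0.0632 with centring after scaling, 0.220 with brightness as a covariate and 0.0602 without the 5 dim arrays. At 7.5 cGy, where the choice of FTL used the contrast, the differences were −0.84 and −1.05. Averaged over doses, GM15510 minus GM15036 was 0.02 (SE 0.045) on 212788_x_at and −0.13 (SE 0.067) on 213187_x_at, given without a test because the GM15036 mean includes the arrays that chose FTL. Among the doses of GM15510, limma's F test gave adjusted p = 0.969 and 0.216. With unscaled median centring, however, FTL 212788_x_at in GM15510 had −0.83 at 2.5 cGy (adjusted p = 4.17e-05) and −0.46 at 5 cGy (adjusted p = 0.0352), which is −0.33 and −0.16 relative to the median of all probe sets, and with centring after scaling it had −0.32 at 2.5 cGy (adjusted p = 0.0217).

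A probe set annotated to FTH1P5, a pseudogene of the ferritin heavy chain, is no member and is given for completeness. In GM15510 its mean signals lay between 1352 and 1482. In GM15036 those from 1 to 10 cGy, in order of dose, were 1557 ± 40.4, 1515 ± 210, 1577 ± 127, 1784 ± 337 and 1925 ± 77.8 (SD, n = 3). Whether this probe set reports FTH1 was not assessed.

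TFRC, the receptor through which transferrin-bound iron is taken up, had probe sets that disagreed. In GM15036 207332_s_at was lower at 2.5, 7.5 and 10 cGy than at 1 cGy, whereas 208691_at passed at 0 of the 4 doses of that line. In GM15510 208691_at was higher at 2.5 and 7.5 cGy, and 207332_s_at passed at 0 doses. The root mean square difference between the changes of these probe sets over the 8 comparisons was 0.474 on the log2 scale. Across the 8 comparisons of a dose with 1 cGy, TFRC supplied every member call other than those of FTL.

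For 207332_s_at, GM15510 arrays had signals of 1710, 1920 and 1825 at 1 cGy, 1774, 1637 and 1735 at 2.5 cGy, 1612, 1589 and 1636 at 5 cGy, 2295, 2090 and 2336 at 7.5 cGy, and 1582, 1759 and 1779 at 10 cGy. In that line the 7.5 cGy arrays stood above all others. GM15036 arrays had 2310, 2156 and 1849 at 1 cGy, 1534, 1581 and 1612 at 2.5 cGy, 2279, 2437 and 2314 at 5 cGy, 1544, 1513 and 1384 at 7.5 cGy, and 1434, 1145 and 1435 at 10 cGy. The arrays at 2.5, 7.5 and 10 cGy lay below every array at 1 and 5 cGy, so the pattern was not monotonic in dose.

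The log2 changes of TFRC 207332_s_at in GM15510 were −0.08, −0.17, 0.30 and −0.09 in order of dose, and 0 of 4 passed (adjusted p = 0.638, 0.35, 0.0838 and 0.739), although the F test over the doses passed (adjusted p = 0.00160). In that line the TFRC change at 2.5 cGy passed as a fall with quantile normalization (−0.35, adjusted p = 0.00503) and with median centring of unscaled (−0.86, 1.17e-04) or scaled arrays (−0.35, 0.0266). At 5 cGy it passed as a fall with quantile normalization (−0.38, adjusted p = 0.00315) and unscaled median centring (−0.59, 0.0182), and at 7.5 cGy as a rise without the 5 dim arrays (0.30, 0.0480). In GM15036 the changes at 2.5, 5, 7.5 and 10 cGy were −0.41, 0.16, −0.50 and −0.65, with an SE of 0.090 and limma adjusted p = 0.0231, 0.720, 9.80e-04 and 7.40e-06. The falls of TFRC at 7.5 and 10 cGy kept their call under all 12 alternatives and with each of the 30 arrays left out, and without the 5 dim arrays, with 1 array left at 10 cGy, the fall there was −0.55 (adjusted p = 0.00524). The fall at 2.5 cGy was lost under 3 of 12 alternatives, with a highest adjusted p of 0.130 under unscaled median centring, and without 1 cGy array a (0.160) or b (0.110) or any of the 2.5 cGy arrays (0.0685 to 0.114).

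For 208691_at, GM15510 arrays had signals of 2120, 2163 and 1831 at 1 cGy, 3241, 3300 and 3319 at 2.5 cGy, 3241, 2730 and 2009 at 5 cGy, 3107, 2464 and 2781 at 7.5 cGy, and 2176, 2409 and 2197 at 10 cGy. The 1 and 10 cGy arrays and 1 array at 5 cGy were the low ones, and the 2.5 cGy arrays the high ones with 1 array at 5 cGy. GM15036 arrays had 2825, 2802 and 2942 at 1 cGy, 3015, 2898 and 2633 at 2.5 cGy, 3295, 3455 and 3256 at 5 cGy, 2883, 2283 and 2681 at 7.5 cGy, and 2942, 3156 and 2920 at 10 cGy. Here only the 5 cGy arrays stood clear of those at 1 cGy.

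In GM15510 the TFRC probe set 208691_at changed at 2.5, 5, 7.5 and 10 cGy by 0.69, 0.36, 0.45 and 0.15, with an SE of 0.115 and adjusted p = 1.52e-04, 0.0735, 0.0350 and 0.616. The rise at 2.5 cGy, a group of dim arrays, became −0.087 with unscaled median centring (0.41 above the median of all probe sets), 0.26 with quantile normalization (adjusted p = 0.0588) and 0.27 with brightness as a covariate (adjusted p = 0.475). Without the 5 dim arrays it was 0.67 (adjusted p = 0.00846), from the 1 array left at 2.5 cGy. The rise at 7.5 cGy was lost under 6 of 12 alternatives, with a highest adjusted p of 0.479 under quantile normalization, and when any of 5 single arrays was left out, among them each of the 1 cGy arrays (0.0542 to 0.204). The changes in GM15036 were −0.01, 0.22, −0.13 and 0.07 with adjusted p = 0.997, 0.659, 0.667 and 0.761, the last of which became −0.59 (adjusted p = 0.00117) with unscaled median centring.

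**Figure D2:**
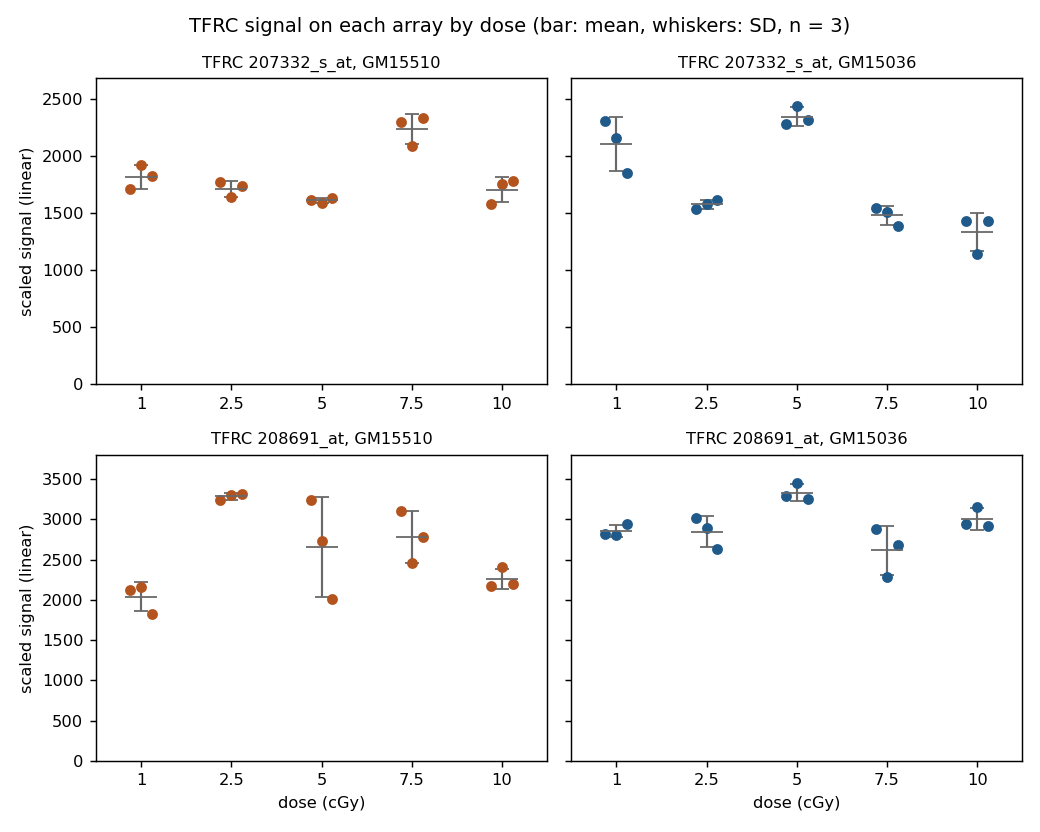
Scaled signal (linear axis from 0) of both TFRC probe sets on each array against dose in cGy, GM15510 on the left and GM15036 on the right. Points are arrays, the bar is the mean and whiskers are the SD of 3 arrays. The 207332_s_at signal of GM15036 is 1145 to 1612 at 2.5, 7.5 and 10 cGy and 1849 to 2437 at 1 and 5 cGy, a pattern that 208691_at does not share.

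The TFRC dose pattern differed between the lines on both probe sets. The line by dose interaction had adjusted p = 5.62e-07 for 207332_s_at and 0.00255 for 208691_at, below 0.05 under each of 11 alternatives and with each of 30 arrays left out. The change in GM15510 minus that in GM15036 was 0.80 (SE 0.128, adjusted p = 3.20e-04) at 7.5 cGy and 0.56 (SE 0.128, adjusted p = 0.00401) at 10 cGy for 207332_s_at. For 208691_at it was 0.70 (SE 0.163, adjusted p = 0.0123) at 2.5 cGy and 0.58 (SE 0.163, adjusted p = 0.0418) at 7.5 cGy. For 207332_s_at at 10 cGy adjusted p was 0.0767 when brightness entered the fit. Without the 5 dim arrays adjusted p was 0.0608 for 207332_s_at at 10 cGy and 0.0502 for 208691_at at 2.5 cGy, and the TFRC difference of 208691_at at 7.5 cGy lost its call without any of 13 single arrays of either line (up to 0.142). Counted over members, the difference of changes passed for 1 of 12 at 2.5 cGy (2.81% of all tested probe sets), 0 at 5 cGy (0.945%), 2 of the 10 that are not FTL at 7.5 cGy (3.09%) and 2 of 12 at 10 cGy (8.19%).

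Apart from the 4 added to each signal, a difference within an array does not move with the scaling of that array. That addition weighs most on the dimmest of these probe sets, FTL 213187_x_at. FTL was therefore also set against TFRC on the same array. The level of such a difference between probe sets has no meaning of its own, and only its change with dose is given. With FTL 212788_x_at minus TFRC 207332_s_at, GM15036 exceeded 1 cGy by 1.36 at 7.5 cGy and by 1.26 at 10 cGy on the log2 scale. With TFRC 208691_at in its place, the changes were 0.99 and 0.53. Each value is the FTL change minus the TFRC change given above, so it is not separate support for FTL. For TFRC 207332_s_at those changes were −0.50 at 7.5 cGy and −0.65 at 10 cGy, falls that enlarge the difference. For all 4 pairings of FTL and TFRC probe sets the arrays at 7.5 and at 10 cGy lay above those at 1 cGy without overlap. The pairings share arrays and probe sets, so they are not separate results, and the 7.5 cGy values include those that chose FTL. How often other pairs of probe sets separate in this way was not computed. At 10 cGy the exact two-sided permutation test gave p = 0.1, the smallest that 3 arrays against 3 allow, so this design cannot reach 0.05 for any of the 32 differences computed, and 7.5 cGy was not tested. At the lower doses of GM15036, FTL 212788_x_at minus TFRC 208691_at changed by −0.25 at 5 cGy without overlap. FTL 213187_x_at minus TFRC 207332_s_at changed by 0.42 at 2.5 cGy, also without overlap. The exact permutation test gave p = 0.1 for both. In GM15510 FTL 212788_x_at minus TFRC 207332_s_at overlapped with 1 cGy at all 4 doses. With TFRC 208691_at, the changes of FTL 212788_x_at at 2.5, 5 and 7.5 cGy were −0.74, −0.40 and −0.43 without overlap. FTL 213187_x_at had −0.51 at 2.5 cGy and −0.48 at 7.5 cGy against TFRC 208691_at, and 0.46 at 5 cGy and −0.34 at 7.5 cGy against TFRC 207332_s_at, each without overlap. The exact permutation p was 0.1 for each of these 7 changes in GM15510.

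**Figure D3:**
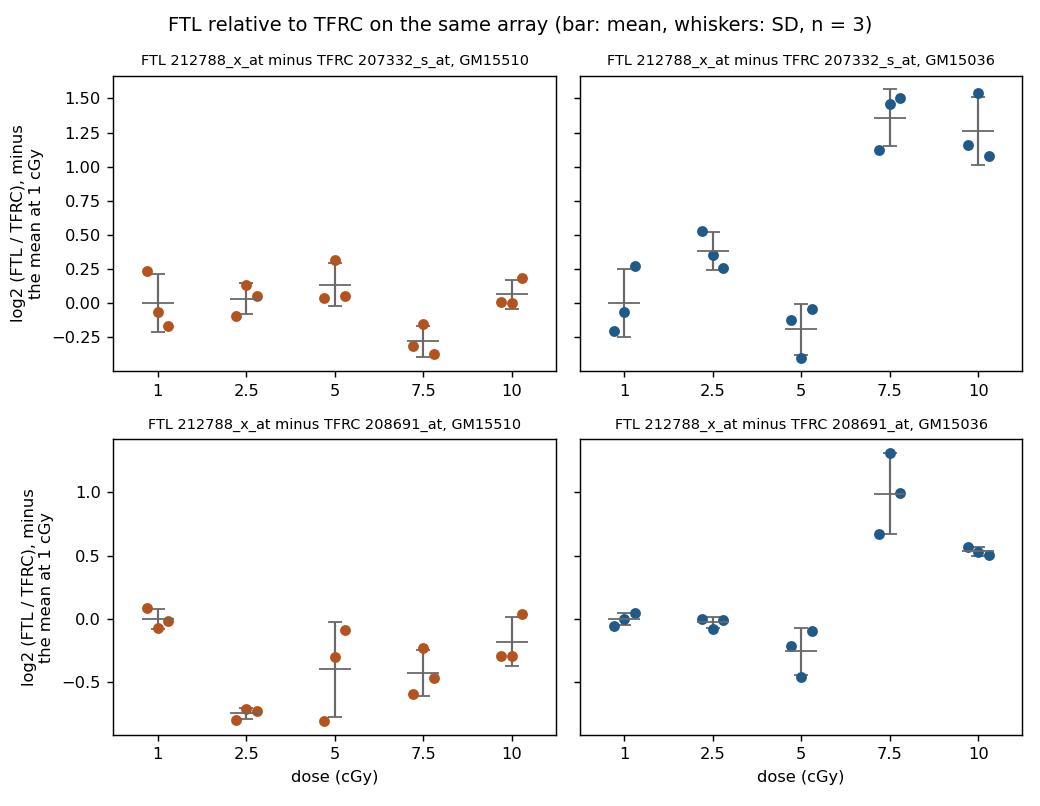
Log2 ratio of FTL 212788_x_at to each TFRC probe set on the same array, minus its mean at 1 cGy of the line, against dose in cGy, GM15510 on the left and GM15036 on the right. Points are arrays, the bar is the mean and whiskers are the SD of 3 arrays. In GM15036 the means at 7.5 and 10 cGy are 1.36 and 1.26 in the upper row and 0.99 and 0.53 in the lower row.

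SLC11A2, the divalent metal transporter that moves iron out of endosomes, had 4 dim probe sets, of which 3 were tested. The remaining one, 210047_at, did not pass the filter, with signals between 0.668 and 28.7. None of the 3 passed at any dose of either line in the text's setting. On 203124_s_at the GM15510 arrays had 46.5, 45.8 and 44.7 at 10 cGy, against 65.8, 71.2 and 74.9 at 1 cGy, a log2 difference of −0.58 (SE 0.196, adjusted p = 0.0752) without overlap. At 2.5 cGy they had 49.7, 49.3 and 51.0, a difference of −0.46 (adjusted p = 0.140). In GM15036 the arrays at 5 cGy had 39.8, 53.0 and 54.1, against 67.4, 83.6 and 72.8 at 1 cGy, a difference of −0.58 (adjusted p = 0.329). At 7.5 cGy that line had −0.57 (adjusted p = 0.114), also without overlap. With unscaled and scaled median centring, 203124_s_at passed in GM15510 at 2.5 cGy (2.27e-04 and 0.0101) and in GM15036 at 10 cGy (0.00222 and 0.0430). With each line alone it passed in GM15510 at 10 cGy (0.0238). The F tests over doses passed narrowly, with adjusted p = 0.0445 in GM15510 and 0.0418 in GM15036, and each lost its call under 5 of 12 alternatives (up to 0.0714 and 0.136). The line by dose interaction had adjusted p = 0.0138 and was lost, of 11 alternatives, only without the 5 dim arrays (0.0609). The other tested probe sets, 203123_s_at and 203125_x_at, passed none of these F tests (adjusted p = 0.261 to 0.840).

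NCOA4, the receptor that carries ferritin to lysosomes, was higher in GM15510 than in GM15036 when averaged over doses, though at 1 cGy the means were 427 in GM15510 and 450 in GM15036. The lowest, median and highest of the 15 arrays were 410, 475 and 1073 in GM15510 and 338, 396 and 525 in GM15036, so the lines overlapped. The line difference was 0.38 (SE 0.089, adjusted p = 6.34e-04) and kept its call under 11 alternatives. In GM15510 the arrays at 2.5 cGy had 523, 1073 and 475, against 410, 441 and 431 at 1 cGy, a change of 0.59 (SE 0.199) that did not pass (adjusted p = 0.0564) and that 1 array leads. Without the 5 dim arrays, among them the highest one, it was 0.29 (adjusted p = 0.516). The changes at the other doses were 0.43, 0.34 and 0.19 in GM15510 and −0.14 to −0.27 at 2.5, 7.5 and 10 cGy in GM15036, and 0 of 8 NCOA4 comparisons passed.

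ACO1, the cytosolic aconitase that becomes iron regulatory protein 1 when it loses its iron-sulphur cluster, leaned in opposite directions in the lines without passing. GM15510 arrays had signals of 31.0, 26.3 and 26.8 at 1 cGy, 29.6, 44.2 and 22.0 at 2.5 cGy, 36.2, 47.1 and 43.3 at 5 cGy, 39.3, 46.3 and 42.2 at 7.5 cGy, and 47.4, 52.1 and 41.0 at 10 cGy. From 5 cGy upward these arrays did not overlap with 1 cGy, and the changes were 0.52, 0.54 and 0.66 (SE 0.240, adjusted p = 0.262, 0.344 and 0.109). GM15036 arrays had 48.0, 21.3 and 40.7 at 7.5 cGy, against 54.1, 57.0 and 46.7 at 1 cGy, a change of −0.54 (SE 0.240, adjusted p = 0.260), and 45.5, 30.4 and 45.3 at 10 cGy, a change of −0.37 (adjusted p = 0.379). The interaction test of ACO1 gave adjusted p = 0.0545. It passed with unscaled and scaled median centring (5.88e-04 and 0.0156), the 60th percentile filter (0.0387) and the replicate block (0.0242).

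HMOX1, the inducible haem oxygenase, was dim in both lines and passed at 0 of 8 comparisons. Its lowest, median and highest signals were 17.0, 25.0 and 38.0 in GM15510 and 5.10, 19.4 and 45.4 in GM15036. In GM15036 the 10 cGy arrays had 5.29, 45.4 and 39.9, against 10.6 to 18.4 at 1 cGy, a change of 0.54 (SE 0.421, adjusted p = 0.478) in which 1 array lay below and the other pair above all 1 cGy arrays. Without that low array, 10 cGy array a, the change of HMOX1 was 1.31 (adjusted p = 0.0162), the F test over doses of GM15036 had adjusted p = 0.0112 and the interaction 0.0231, so 1 array decides whether HMOX1 passes. HMOX2, the constitutive form, passed at 0 of 8 comparisons on either of its probe sets. Its 218121_at arrays in GM15036 had 78.4, 49.0 and 51.9 at 10 cGy, against 41.7, 40.4 and 28.8 at 1 cGy, a change of 0.63 (SE 0.303, adjusted p = 0.200) without overlap.

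Over all 12 tested member probe sets the counts were small. FTL and TFRC supplied every call against 1 cGy, which is too few to set against the share of all probe sets called. In GM15510, 1 of 12 passed at 2.5 cGy, where 9.49% of all tested probe sets did, 0 at 5 cGy (4.19%), 1 at 7.5 cGy (1.79%) and 0 at 10 cGy (5.91%). In GM15036, 1 of 12 passed at 2.5 cGy (0.548% of all), 0 at 5 cGy (0.143%), 1 of the 10 that are not FTL at 7.5 cGy (3.22%) and 3 of 12 at 10 cGy (11.7%), 2 of which are FTL. At an unadjusted p under 0.05, the member counts of 0 became 3 at 5 cGy and 2 at 10 cGy in GM15510 and 1 at 5 cGy in GM15036. The median change of the members at 10 cGy was −0.04 in GM15510 and 0.15 in GM15036, beside 0.00 and 0.03 over all tested probe sets. The F tests over doses called 3 of 12 in GM15510 (21.0% of all) and 2 of 10 in GM15036 (16.2%), and the interaction called 3 of 10 (20.5%). Setting 10 cGy against the mean of 2.5 and 5 cGy called 1 of 12 in GM15510, the lower TFRC 208691_at (12.3% of all), and 2 of 12 in GM15036, the higher FTL 212788_x_at and the lower TFRC 207332_s_at (12.2%).

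**Figure D4:**
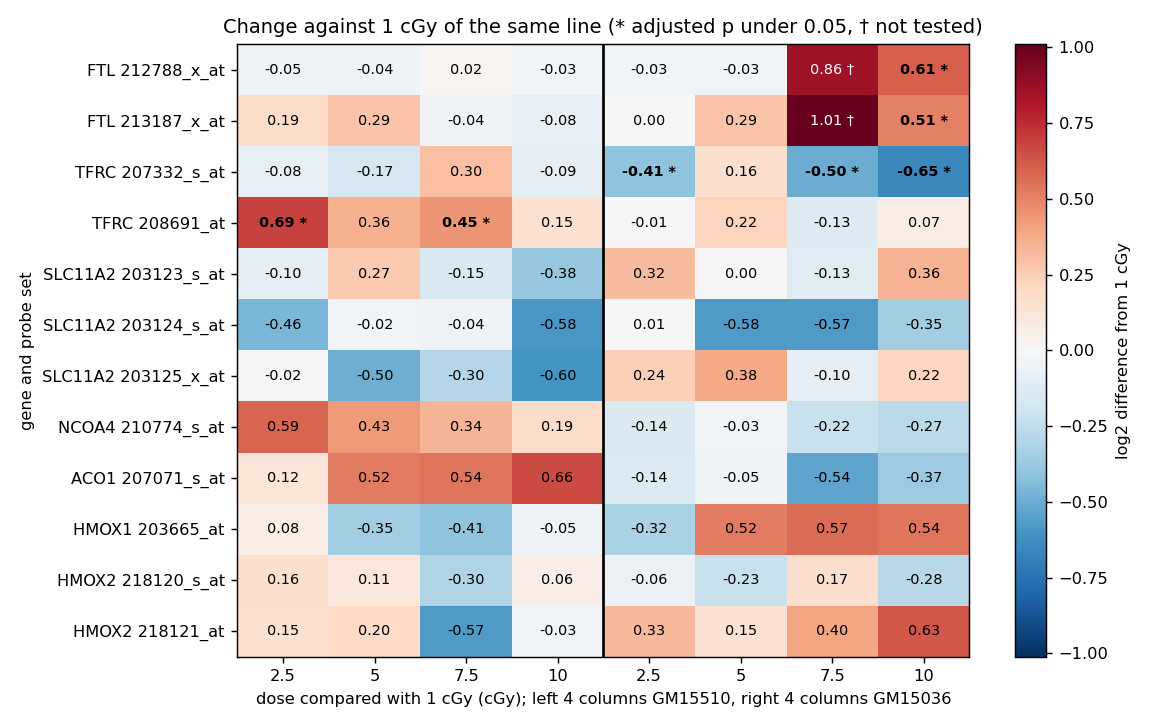
Log2 difference from 1 cGy of the same line (colour and number) for the 12 tested member probe sets (rows) at 4 doses, GM15510 in the left columns and GM15036 in the right. A star marks limma adjusted p under 0.05 and a dagger the 2 values that chose FTL and were not tested. FTL at 10 cGy and TFRC 207332_s_at at 2.5, 7.5 and 10 cGy carry the calls of GM15036, and TFRC 208691_at at 2.5 and 7.5 cGy those of GM15510.

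Between the lines, averaged over doses, 4 of the 10 member probe sets other than FTL differed, where 47.2% of all tested probe sets did. Beside NCOA4, which was higher in GM15510, these were TFRC 208691_at with GM15510 minus GM15036 at −0.19 (SE 0.052, adjusted p = 0.00252), SLC11A2 203125_x_at at −0.84 (SE 0.168, adjusted p = 8.45e-05) and HMOX2 218121_at at −0.44 (SE 0.136, adjusted p = 0.00764). SLC11A2 203125_x_at had a lowest, median and highest signal of 3.87, 12.3 and 24.1 in GM15510 and 14.5, 23.6 and 36.0 in GM15036. The genes' other probe sets did not pass: SLC11A2 203123_s_at had −0.25 (adjusted p = 0.0924), in the same direction, and passed when GM15036 7.5 cGy array a (0.0306) or GM15510 2.5 cGy array 1 (0.0213) was left out. SLC11A2 203124_s_at had 0.00 (adjusted p = 0.974), HMOX2 218120_s_at 0.07 (adjusted p = 0.663) and TFRC 207332_s_at 0.07 (adjusted p = 0.186). The TFRC 208691_at difference was −0.05 and lost its call with unscaled median centring (adjusted p = 0.564), and that of HMOX2 218121_at was lost under 3 alternatives, among them leaving out the 5 dim arrays (adjusted p = 0.0530).

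Wider lists of 74 iron genes, chosen by function, had 87 tested probe sets of 53 genes. Against 1 cGy, 0 rose and 8 fell in GM15036 at 10 cGy (9.20% of the 87, where 7.35% of all tested probe sets fell and 4.39% rose), with a median of −0.14 beside 0.03 over all. At 7.5 cGy 0 rose and 3 fell (3.45%, beside 3.22% of all called), at 2.5 cGy 0 rose and 1 fell (1.15%, beside 0.548%), and at 5 cGy 0 passed. In GM15510, 1 rose and 3 fell at 2.5 cGy (4.60%, beside 9.49%), 0 rose and 1 fell at 10 cGy (1.15%, beside 5.91%), and 0 passed at 5 and 7.5 cGy. The single rise was NQO1, a quinone reductase, at 0.53 with an adjusted p of 0.0429, and it is named because it was the single one, after its value had been seen.

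Among uptake genes, SLC39A8, a zinc, manganese and iron importer of the cell surface, fell in GM15036 on 3 probe sets. Its 216504_s_at averaged 31.7 ± 6.71 at 7.5 cGy and 31.0 ± 7.72 at 10 cGy, against 71.2 ± 11.1 at 1 cGy (SD, n = 3), changes of −1.08 and −1.12 (SE 0.165, limma adjusted p = 2.01e-04 and 1.91e-05) that kept their call under all 12 alternatives. Its 209267_s_at changed by −0.55 at 2.5 cGy, −0.40 at 7.5 cGy and −0.48 at 10 cGy (SE 0.090, adjusted p = 0.00264, 0.00817 and 3.96e-04), with 0.36 at 5 cGy (adjusted p = 0.0889), and 219869_s_at changed by −0.75 at 10 cGy (adjusted p = 0.00728). When brightness was a covariate, the falls of SLC39A8 209267_s_at at 7.5 and 10 cGy (adjusted p = 0.109 and 0.0869) and of 219869_s_at (0.435) did not pass, and without the 5 dim arrays that of 219869_s_at did not (0.0579). In GM15510 SLC39A8 passed at 0 of 4 doses on each of the 3 probe sets. The F test over the doses of that line did pass for 216504_s_at (limma adjusted p = 0.00381) and was kept under all 12 alternatives. SLC39A14, its closest relative in the family and an importer of iron that is not bound to transferrin, changed by −0.45 (SE 0.116, adjusted p = 0.0225) in GM15036 at 7.5 cGy.

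Among storage genes, PCBP1, the chaperone that hands iron to ferritin, fell in GM15036 at 10 cGy. Its signal had a mean of 117 at 10 cGy, against 217 at 1 cGy (n = 3 each), a change of −0.88 (SE 0.116, adjusted p = 4.05e-06) that kept its call under all 12 alternatives and was −0.70 without the 5 dim arrays. At 2.5, 5 and 7.5 cGy PCBP1 had −0.08, −0.15 and −0.25 and did not pass, nor did it at any dose of GM15510 (−0.31, −0.36, −0.14 and 0.16). The F test over the doses of GM15510 passed for PCBP1 (adjusted p = 0.00449) and was lost with brightness in the fit (0.158). PCBP2, a related chaperone, changed by −0.40 at 10 cGy (adjusted p = 0.0410), a call lost under 7 of 12 alternatives, and without the 5 dim arrays it had −0.05.

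Among sensing genes, FBXL5, the iron-binding subunit of the ubiquitin ligase that degrades iron regulatory protein 2, fell in the dimmest group of each line. Its 209004_s_at averaged 96.3 ± 19.2 at 2.5 cGy in GM15510, against 160 ± 5.29 at 1 cGy, a change of −0.73 (SE 0.142, adjusted p = 8.67e-04). In GM15036 it averaged 85.9 ± 8.05 at 10 cGy, against 129 ± 13.2 at 1 cGy, a change of −0.56 (SE 0.142, adjusted p = 0.00718). Both calls of FBXL5 were lost with brightness as a covariate (−0.28 with adjusted p = 0.607, and −0.15 with 0.789) and without the 5 dim arrays (0.110 and 0.136), where each of these groups is down to 1 array and has less power. HERC2, a ubiquitin ligase that acts on FBXL5, changed by −0.49 at 2.5 cGy in GM15510 (adjusted p = 0.0176), and by −0.31 without the 5 dim arrays (adjusted p = 0.288). NFE2L2, the transcription factor of the oxidative stress response, changed by −0.53 at 10 cGy in GM15510 (adjusted p = 0.0177), a call lost under both median centrings (0.270 and 0.0638). Among mitochondrial iron-sulphur genes, FDX1, a ferredoxin, changed by −0.59 at 2.5 cGy in GM15510 (SE 0.124, adjusted p = 0.00194), and it was lost only with brightness as a covariate (0.200) of 12 alternatives.

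**Figure D5:**
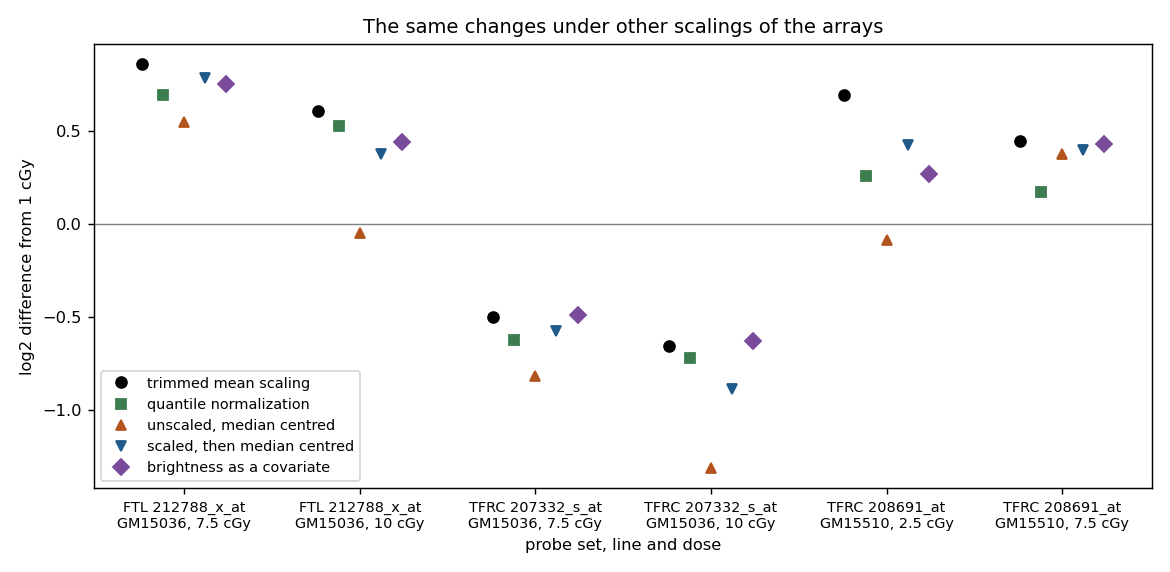
Log2 difference from 1 cGy for 6 changes of FTL and TFRC under the trimmed mean scaling used in the text and 4 alternatives, with a line at 0. Symbols are settings. TFRC 207332_s_at stays between −0.49 and −1.31 under all 5, FTL at 7.5 cGy between 0.55 and 0.86, and FTL at 10 cGy and TFRC 208691_at at 2.5 cGy reach −0.051 and −0.087 with unscaled median centring.

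By the similarity of the 8 log2 changes against 1 cGy, the probe sets nearest to FTL 212788_x_at were those of AP3B1 (root mean square difference 0.130), EIF3F (0.149), PSKH1 (0.157), ARPC2 (0.164) and YBX1 (0.165), out of 11647 candidates, while the other FTL probe set was at 0.196. AP3B1 had 0.96 at 7.5 cGy and 0.71 at 10 cGy in GM15036. The probe sets nearest to TFRC 208691_at were those of SRGN (0.0895), TMEM223 (0.115), CDC27 (0.118), EMC1 (0.134) and APOL2 (0.135). These changes share their 1 cGy arrays within a line and are given as a description.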

How the data were processed

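The deposited signal intensity comes from MAS5, per the submitters' processing notes; its version, scaling and background correction are not given in the sources available. The deposited values are positive and linear. RNA was amplified with T7 polymerase, as the design text states, and labelled with biotin, per the labels. Symbols of the platform annotation, which can be old, were updated by gene ID with RefSeq (19059 probe sets matched), and 19071 probe sets had 1 symbol, 1043 several and 2169 none.

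Arrays were scaled to a common 2 to 98 percent trimmed mean of 50.9, since these differed by 7.91 times, a pseudocount of 4 was added, and probe sets with a mean log2 value above the 40th percentile were tested. limma 3.58.1 in R 4.3.3 (lmFit on 10 groups, eBayes with trend, two-sided, all 30 arrays, 20 residual degrees of freedom) gave every adjusted p, with Benjamini-Hochberg adjustment over all 13329 tested probe sets and a threshold of 0.05. The fit was tested on simulated data. The number of arrays limits the precision. Arrays of a group correlated at 0.901 to 0.972, and 0 pairs were identical. Figures were drawn with matplotlib.

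The members and lists were chosen with earlier results of these data known. Named genes were all members, up to 4 probe sets past the threshold per wider list by smallest p (not all printed), and the 5 nearest genes of FTL and TFRC. The planned within-array test of FTL against FTH1 could not be run without a probe set named FTH1, and TFRC took its place. The planned FTL test between lines is given as a description, since its GM15036 mean holds the arrays that chose FTL. That pairing, the 10 cGy contrast against 2.5 and 5 cGy, the differences of changes between lines and the fit without 5 dim arrays were added after seeing the data. Other settings tried were quantile normalization, both median centrings, pseudocounts of 1 or 16, leaving the filter out or moving it to the 60th percentile, each line alone, eBayes without trend, a replicate block, brightness as a covariate and each array left out.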

Additional observations from a re-analysis of the deposited data

Results flagged for a closer look

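These results differed between the lines under the same dose contrast, by a test of the difference itself, given as GM15510 minus GM15036. FTL 212788_x_at had a difference of changes of −0.64 at 10 cGy (limma adjusted p = 0.00330). That difference shares its GM15036 1 cGy arrays with the contrast that chose FTL. This FTL call was kept under 7 of 11 alternatives. The value turned to 0.068 with unscaled median centring, and the call was lost with brightness in the fit. The other FTL probe set, 213187_x_at, did not pass (adjusted p = 0.0860). TFRC 207332_s_at had 0.80 at 7.5 cGy (adjusted p = 3.20e-04) and 0.56 at 10 cGy (adjusted p = 0.00401, and 0.0767 with brightness in the fit), and TFRC 208691_at had 0.70 at 2.5 cGy (adjusted p = 0.0123) and 0.58 at 7.5 cGy (adjusted p = 0.0418). The line by dose interaction had adjusted p = 5.62e-07 for TFRC 207332_s_at, 0.00255 for TFRC 208691_at and 0.0138 for SLC11A2 203124_s_at. The TFRC 208691_at difference at 2.5 cGy lost its call under 6 of 11 alternatives. Brightness differed between the lines at 10 cGy, with means of 89.1 in GM15510 and 22.1 in GM15036, and at 2.5 cGy, with 18.7 and 49.8, and its part in these differences was not tested.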

How the results depend on the processing

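Under 12 alternatives and with each of 30 arrays left out, the TFRC 207332_s_at falls in GM15036 at 7.5 and 10 cGy and the NCOA4 and SLC11A2 203125_x_at line differences, where these gave a value, kept their calls. Values past the threshold in the text's setting or in the alternative reversed with unscaled median centring: FTL in GM15036 at 10 cGy (−0.051 on 212788_x_at, −0.035 on 213187_x_at), the FTL line difference of changes at 10 cGy (0.068), TFRC 208691_at at 2.5 cGy in GM15510 (−0.087) and at 10 cGy in GM15036 (−0.59), and TFRC 208691_at in GM15510 at 10 against 2.5 and 5 cGy, which was −0.37 (adjusted p = 0.0101), 0.27 under that setting and 0.026 with brightness as a covariate. The cause was not tested. Values of FTL and TFRC that passed in neither setting also changed sign under other scalings, such as TFRC 208691_at in GM15036 at 10 cGy, which was −0.064 with quantile normalization, −0.16 with scaled centring and −0.31 with brightness in the fit. Counts of called members moved as follows. With unscaled median centring they were 3, 2, 0 in GM15510 at 2.5, 5 and 7.5 cGy, 0, 2 and 5 in GM15036 at 2.5, 7.5 and 10 cGy, and 5 in each of the 3 F tests. With scaled median centring they were 4 and 0 in GM15510 at 2.5 and 7.5 cGy. With quantile normalization they were 1 and 0 in GM15510 at 5 and 7.5 cGy, 2 in GM15036 at 7.5 cGy and 1 in the GM15510 F test. With brightness as a covariate they were 0 in GM15510 at 2.5 cGy and 1 in GM15036 at 10 cGy. The 60th percentile filter gave 2 in GM15510 at 2.5 cGy. No filter and eBayes without trend each gave 0 in GM15510 at 7.5 cGy, 0 in GM15036 at 2.5 cGy and 1 in the GM15036 F test. Each line alone gave 0 at 7.5 and 1 at 10 cGy in GM15510, and leaving out the 5 dim arrays gave 2 and 1. With single arrays left out the counts ran from 1 to 2, 0 to 1, 0 to 1 and 0 to 1 over the doses of GM15510, from 0 to 1, 0 to 0, 1 to 2 and 2 to 3 over those of GM15036, from 4 to 6 between lines, and from 2 to 4, 1 to 3 and 3 to 4 in the F tests of GM15510, GM15036 and the interaction.

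The replicate block changed the count of no dose contrast. It added ACO1 to the line difference (−0.23, adjusted p = 0.0446, 5 members called), to the interaction (0.0242, 4 called) and to the differences of changes at 7.5 and 10 cGy (0.0435 and 0.0300). Among the wider lists it ended the PCBP2 call at 10 cGy (0.0519) and the F tests of HFE 211330_s_at, SLC25A38 and FBXL5 209004_s_at. Arrays with the same label share a letter or number only (their deviations correlated at −0.061 to 0.097 in GM15510 and −0.056 to 0.041 in GM15036), and 6 of 15 arrays in each line correlated best with their own label. Counts over all tested probe sets moved with scaling too: 1565 were called in GM15036 at 10 cGy, 4325 with unscaled median centring and 362 when brightness was a covariate, and in GM15510 at 2.5 cGy 1265, 5692 and 115. Over all alternatives the other counts ran from 222 to 1965 (559 in the text's setting), 7 to 342 (238) and 191 to 1032 (788) in GM15510 at 5, 7.5 and 10 cGy, and from 24 to 126 (73), 2 to 50 (19) and 134 to 673 (429) in GM15036 at 2.5, 5 and 7.5 cGy. Dim probe sets, those of HMOX1, HMOX2 and SLC11A2 above all, limit what can be seen: their standard errors ran from 0.196 to 0.421.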

Other observations

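Genes of haem synthesis, iron-sulphur assembly and lipid peroxide defence were tested over doses by limma's F test, and a few passed without passing at any single dose against 1 cGy. The same F test passed for 16.2% of all tested probe sets in GM15036 and 21.0% in GM15510, so such calls were common. Whether the lists exceed that share was not tested. CPOX, an enzyme late in haem synthesis, passed in GM15036 (adjusted p = 6.04e-04, kept under 12 of 12 alternatives), with mean signals of 199 ± 29.2, 228 ± 27.5, 258 ± 32.7, 156 ± 17.2 and 157 ± 11.2 in order of dose from 1 to 10 cGy (SD, n = 3, as for all values here). The means at both upper doses of CPOX lay below those at the 3 lower ones. GPX4, the selenoenzyme that reduces lipid peroxides in membranes, passed in GM15036 (adjusted p = 0.0123), with 65.3 ± 4.22, 56.2 ± 7.37, 57.6 ± 7.23, 81.5 ± 8.02 and 86.8 ± 2.93 in order of dose, and it was lost under 4 of 12 alternatives, with adjusted p = 0.397 under unscaled median centring. GLRX5, a mitochondrial glutaredoxin of iron-sulphur transfer, passed in GM15036 (adjusted p = 0.00947), with 257 ± 42.5, 214 ± 45.5, 208 ± 22.3, 315 ± 69.0 and 333 ± 66.7 in order of dose. GPX4 and GLRX5 had their higher means at the upper doses. The GLRX5 call was kept under 9 of 12 alternatives. It was lost with brightness as a covariate (adjusted p = 0.157), with unscaled median centring (0.182) and with eBayes without trend (0.056).

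In GM15510 NFU1, a scaffold for iron-sulphur clusters, passed the F test (adjusted p = 0.00830), with 66.2 ± 0.915, 79.0 ± 12.9, 76.8 ± 14.9, 48.6 ± 4.51 and 76.3 ± 12.2 in order of dose. KEAP1, the adaptor that targets NFE2L2 for degradation, passed too (adjusted p = 0.0126), with 50.6 ± 0.838, 38.8 ± 2.54, 45.3 ± 7.11, 51.8 ± 4.15 and 66.3 ± 4.18 in order of dose. The means of KEAP1 followed the order of group brightness in GM15510, apart from 1 and 7.5 cGy, whose brightness was 69.4 and 67.7. Both genes kept their calls under 12 of 12 alternatives, brightness as a covariate among them.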
